A study of Mus musculus with 14 samples.

Results

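Neutrophil granule and secretory genes were followed across arrays of mouse brain macrophages and blood monocytes. The 10 genes were chosen by name: Camp, Ltf, Ngp, Lcn2, Mmp8, Mpo, Elane, S100a8, S100a9 and Retnlg. They are 10 of the 17178 genes that the array's probes could be matched to, and 11 probes report them, because Ltf has 2. All 10 passed the filter on dim probes, which asked for a signal well above background on at least 3 of the 14 arrays. The first group was Arg1+ macrophages sorted from the brains of YARG mice 1 day after traumatic brain injury (TBI, 4 arrays), and the second was Arg1- macrophages from brains of the same strain at that time (4 arrays). The third was blood monocytes 1 day after TBI (3 arrays), and the last was blood monocytes of YARG mice with no treatment (3 arrays). All mice were males aged 12 to 16 weeks. YARG mice carry a yellow fluorescent reporter at the locus of arginase-1, so Arg1+ and Arg1- name reporter-positive and reporter-negative cells. The injury model was controlled cortical impact, in which a piston strikes the exposed brain. The arrays analysed here hold no sham-operated group, so effects of the surgery and of the impact cannot be told apart. The labels do not say whether replicates came from separate animals, so p-values measure only the spread between these samples, which may be technical.

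Neutrophils store their antimicrobial proteins in granules that form in sequence while the cell matures in bone marrow. Azurophil granules, made in promyelocytes, hold myeloperoxidase and neutrophil elastase, whereas specific and gelatinase granules, made later, hold lactoferrin, the cathelicidin peptide, lipocalin-2 and collagenase. S100A8 and S100A9 pair as calprotectin, an abundant cytosolic protein of neutrophils and monocytes, and transcription factors of the C/EBP family and PU.1 act on many of these genes. Monocytes and their precursors can also carry RNA of several of them.

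The stretches around the start sites of Camp, Ltf, Ngp and S100a9, whose levels varied together across the arrays, are shown here. So is that of Mmp8, which ran opposite to them across all arrays but with them within groups. Each runs from 250 bases before to 50 bases after the annotated start, 5′ to 3′ on the gene's strand (RefSeq, GRCm38.p6), and capitals mark matches to the C/EBP motif TTNNGCAA on either strand.
Camp (chr9:109849407-109849706, minus strand): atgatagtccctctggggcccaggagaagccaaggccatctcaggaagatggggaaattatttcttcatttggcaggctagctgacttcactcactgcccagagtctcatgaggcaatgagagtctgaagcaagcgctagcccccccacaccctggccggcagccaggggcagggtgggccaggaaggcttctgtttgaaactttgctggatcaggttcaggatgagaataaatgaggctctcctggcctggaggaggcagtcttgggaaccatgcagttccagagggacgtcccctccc
Ltf (chr9:111019042-111019341, plus strand): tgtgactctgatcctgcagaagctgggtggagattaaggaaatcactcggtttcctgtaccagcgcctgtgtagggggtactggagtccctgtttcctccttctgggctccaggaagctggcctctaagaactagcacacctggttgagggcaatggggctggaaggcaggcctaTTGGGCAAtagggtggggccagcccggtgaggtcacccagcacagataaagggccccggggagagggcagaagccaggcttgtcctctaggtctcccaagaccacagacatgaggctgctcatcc
Ngp (chr9:110419558-110419857, plus strand): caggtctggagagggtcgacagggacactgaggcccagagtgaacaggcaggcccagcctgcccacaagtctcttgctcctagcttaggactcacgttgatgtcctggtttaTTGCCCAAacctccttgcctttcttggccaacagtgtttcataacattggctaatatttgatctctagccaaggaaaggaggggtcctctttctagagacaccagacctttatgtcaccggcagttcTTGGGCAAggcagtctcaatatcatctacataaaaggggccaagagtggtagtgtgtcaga
S100a9 (chr3:90695672-90695971, minus strand): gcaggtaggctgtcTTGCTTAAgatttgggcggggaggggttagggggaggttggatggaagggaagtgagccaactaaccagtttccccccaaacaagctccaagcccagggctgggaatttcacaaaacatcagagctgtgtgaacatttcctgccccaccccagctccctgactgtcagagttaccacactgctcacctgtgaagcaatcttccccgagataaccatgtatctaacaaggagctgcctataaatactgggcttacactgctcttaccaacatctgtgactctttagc
Mmp8 (chr9:7558179-7558478, plus strand): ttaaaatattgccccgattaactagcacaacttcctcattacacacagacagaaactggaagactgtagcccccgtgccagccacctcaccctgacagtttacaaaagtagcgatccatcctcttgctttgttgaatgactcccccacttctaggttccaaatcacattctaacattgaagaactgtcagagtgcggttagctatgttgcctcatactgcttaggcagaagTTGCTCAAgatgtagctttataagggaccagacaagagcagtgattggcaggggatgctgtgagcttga
The motif TTNNGCAA was present in the windows of 6 of the 10 genes (Lcn2, Ltf, Mmp8, Ngp, Retnlg and S100a9), against 10.8% of 32851 mouse promoters of the same length. The Ltf match lay 75 bases before the start and read TTGGGCAA. Ngp had 2 matches, 138 and 11 bases before its start, and each read TTGGGCAA on its own strand. The match of Mmp8 lay 19 bases before its start and that of S100a9 lay 236 bases before. The PU.1 motif GAGGAA, searched on both strands, was present for 6 genes (Elane, Lcn2, Ltf, Mmp8, Mpo and S100a8), against 28.3% of promoters. TATAAA was present for 3 (Mmp8, S100a8 and S100a9), against 13.6%, on either strand. The NF-kB motif (GGGA, any 2 bases, then TTCC) was present for 0 of 10, against 1.5%. One PU.1 match of S100a8 ended next to its TATAAA match, and no C/EBP match shared bases with another motif. These matches are descriptions of letters. The Camp window held none of the 4 motifs, which says only that those letters are not in this window.

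Values below are log2 levels, the log2 of a probe's background-subtracted signal over the 75th percentile of its array, so 0 is that percentile and -4.32 is the floor to which dimmer values were raised. The 75th percentile itself lay between 119.4 and 418.5 units of signal, 50.4% to 68.69% of probes were well above background, and no spot was saturated. Levels of different genes come from different probes and are not compared with each other. As these are sorted pools of cells, fewer cells of a type and less RNA per cell cannot be told apart. All 9 measured monocyte and macrophage markers were above background on most arrays of every group, as the labels name these cells. Antibodies including those against CD45, CD11b and Ly6G were used to stain the cells, and the gate set on Ly6G, a neutrophil surface protein, is not given in the sources used here. Ly6g itself had no named probe.

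Granule genes differed widely between the brain populations. In Arg1+ macrophages 7 of the 10 genes were lower than in Arg1- macrophages and 1, Mmp8, was higher, at an adjusted p under 0.05 (limma, Benjamini-Hochberg over 21969 tested features). Among all features 5.04% were called in this comparison, 2.9% as lower and 2.14% as higher. The median difference over the 10 genes was -3.67, against 0.00 over all features. Arrays of both populations did not overlap for 9 of the 10 genes, against 14.9% of all features. Of these 9, 1 lay higher and 8 lay lower in Arg1+ macrophages, against 7.49% and 7.37% of all features. Mpo was the gene with overlap.

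Camp encodes the cathelicidin antimicrobial peptide of specific granules. Its log2 levels were -2.33, -1.15, -2.63 and -4.32 in Arg1+ macrophages, against 2.31, 2.90, 2.84 and 0.43 in Arg1- macrophages. In blood they were -4.32, -3.00 and -2.83 after TBI and -2.19, -2.77 and -4.32 in normal mice. Every Arg1- array stood above every other array, and the remaining groups overlapped. Camp was lower in Arg1+ than in Arg1- macrophages by a log2 difference of -4.73 ± 0.68 (SE, n = 4 and 4, limma adjusted p = 0.000753), a 26.5-fold lower level. With normexp background correction the difference was -3.26.

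Ltf encodes lactoferrin, an iron-binding protein of specific granules. Its levels were 0.27, 1.75, -0.08 and -1.37 in Arg1+ macrophages, against 4.71, 5.41, 4.75 and 2.80 in Arg1- macrophages. Blood levels were -4.32, -1.25 and -1.52 after TBI and -1.21, -0.66 and -1.53 in normal mice. The Arg1- arrays again lay above all others, while Arg1+ and blood arrays overlapped. The difference of Arg1+ from Arg1- macrophages was -4.27 ± 0.72 (SE, n = 4 and 4, limma adjusted p = 0.00268). A second, dimmer Ltf probe averaged -1.56 in Arg1+ and 2.61 in Arg1- macrophages, which is the same direction.

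Ngp encodes neutrophilic granule protein, a cystatin-related protein of the granules. Its levels were -0.43, 1.23, -0.04 and -1.64 in Arg1+ macrophages, against 4.42, 5.15, 4.37 and 2.71 in Arg1- macrophages. Blood levels were -2.89, -1.13 and -0.83 after TBI and -0.95, -1.31 and -0.88 in normal mice. The order was the one seen for Camp and Ltf, with the Arg1- arrays above all 10 others. Ngp was lower in Arg1+ macrophages by a log2 difference of -4.38 ± 0.59 (SE, n = 4 and 4, limma adjusted p = 0.000465).

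Lcn2 encodes lipocalin-2, which binds bacterial siderophores and is also made outside granules in inflamed tissue. Its levels were -1.32, -0.68, -1.65 and -1.25 in Arg1+ macrophages, against 2.46, 2.83, 2.34 and 0.81 in Arg1- macrophages. In blood they were 0.49, 1.66 and 2.28 after TBI and -2.59, 0.17 and -3.82 in normal mice. Unlike the genes above, Lcn2 was high in post-TBI blood too, where its arrays overlapped with the Arg1- arrays and lay above all Arg1+ and normal arrays. The difference of Arg1+ from Arg1- macrophages was -3.34 ± 0.67 (SE, n = 4 and 4, limma adjusted p = 0.0089).

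Mmp8 encodes neutrophil collagenase, a matrix metalloproteinase. Its levels were 2.06, 2.31, 2.29 and 1.58 in Arg1+ macrophages, against 1.26, 0.94, 1.20 and 0.91 in Arg1- macrophages. In blood they were 2.62, 3.04 and 3.19 after TBI and 1.50, 2.19 and 1.61 in normal mice. The Arg1- arrays were the lowest of the 14 and the post-TBI blood arrays the highest, with no overlap of either with another group. Mmp8 was higher in Arg1+ than in Arg1- macrophages by 0.98 ± 0.20 on the log2 scale (SE, n = 4 and 4, limma adjusted p = 0.0103), a 1.98-fold higher level.

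Elane and Mpo belong to the azurophil granules. Elane, the gene of neutrophil elastase, a serine protease, stood at -4.32, -4.32, -3.16 and -4.32 in Arg1+ macrophages, against -2.03, 0.09, -0.67 and -3.02 in Arg1- macrophages. Blood levels were -4.32, -4.29 and -2.89 after TBI and -3.32, -2.91 and -4.32 in normal mice. No Arg1+ array was well above background for Elane, and all 4 Arg1- arrays were. Elane was therefore at least 5.63-fold lower in Arg1+ macrophages (fitted log2 difference with limma adjusted p = 0.0149). That call was lost in 6 of 27 alternative settings, with adjusted p-values up to 0.153. The fitted log2 difference of Elane was -2.62, and it was -0.93 with normexp correction, -1.49 with the authors' deposited log2 values and -1.87 with a floor of 0.1.

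Mpo encodes myeloperoxidase, which makes hypochlorous acid. Its levels were -2.15, -3.16, -1.94 and -1.56 in Arg1+ macrophages, against -1.83, 0.60, -0.28 and -0.88 in Arg1- macrophages. Blood levels were -1.07, -1.79 and -2.13 after TBI and -1.57, -1.06 and -2.36 in normal mice. One Arg1- array lay among the Arg1+ arrays and all neighbouring groups overlapped. The difference of -1.61 ± 0.48 (SE, n = 4 and 4) was not called (limma adjusted p = 0.068). It was called with slide as a block (limma adjusted p = 0.0136) and without Arg1- replicate 1 (limma adjusted p = 0.0232).

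S100a8 and S100a9 encode the subunits of calprotectin, which binds calcium and zinc. S100a8 stood at 0.07, 0.95, 1.22 and -0.15 in Arg1+ macrophages, against 3.00, 3.91 and 1.87 in Arg1- macrophages, where the spot of replicate 3 had been set aside by the scanner software's outlier flags. Its blood levels were -1.33, 0.82 and 1.81 after TBI and -1.17, 0.48 and -2.31 in normal mice. The 3 usable Arg1- arrays lay above all other arrays. The difference of -2.41 ± 0.74 (SE, n = 4 and 3) was not called (limma adjusted p = 0.0815). With outlier spots kept, the missing spot stood at 3.38 and the adjusted p from limma was 0.0399. S100a8 was called in 7 of 27 alternative settings, among them this one, normexp correction, the authors' deposited values and the replicate block.

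S100a9 stood at -0.87, 0.07, 0.13 and -2.12 in Arg1+ macrophages, against 3.13, 4.38, 3.59 and 2.10 in Arg1- macrophages. Blood levels were -3.77, -0.89 and 0.30 after TBI and -0.84, -0.56 and -1.79 in normal mice. The Arg1- arrays were separate from the rest, and the other groups overlapped. S100a9 was lower in Arg1+ macrophages with a difference of -4.00 ± 0.74 on the log2 scale (SE, n = 4 and 4, limma adjusted p = 0.00496).

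Retnlg encodes resistin-like gamma, a secreted protein of mouse bone marrow and neutrophils. It stood at -2.75, -1.47, -1.78 and -1.95 in Arg1+ macrophages, against 2.54, 2.84, 2.89 and 2.06 in Arg1- macrophages. In blood it stood at 2.79, 2.96 and 6.23 after TBI and at 4.53 and 4.26 in normal mice, with 1 normal spot set aside (7.56 if kept). The Arg1+ arrays were the lowest by a wide gap. The difference of Arg1+ from Arg1- macrophages was -4.57 ± 0.58 (SE, n = 4 and 4, limma adjusted p = 0.000374).

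**Figure D1:**
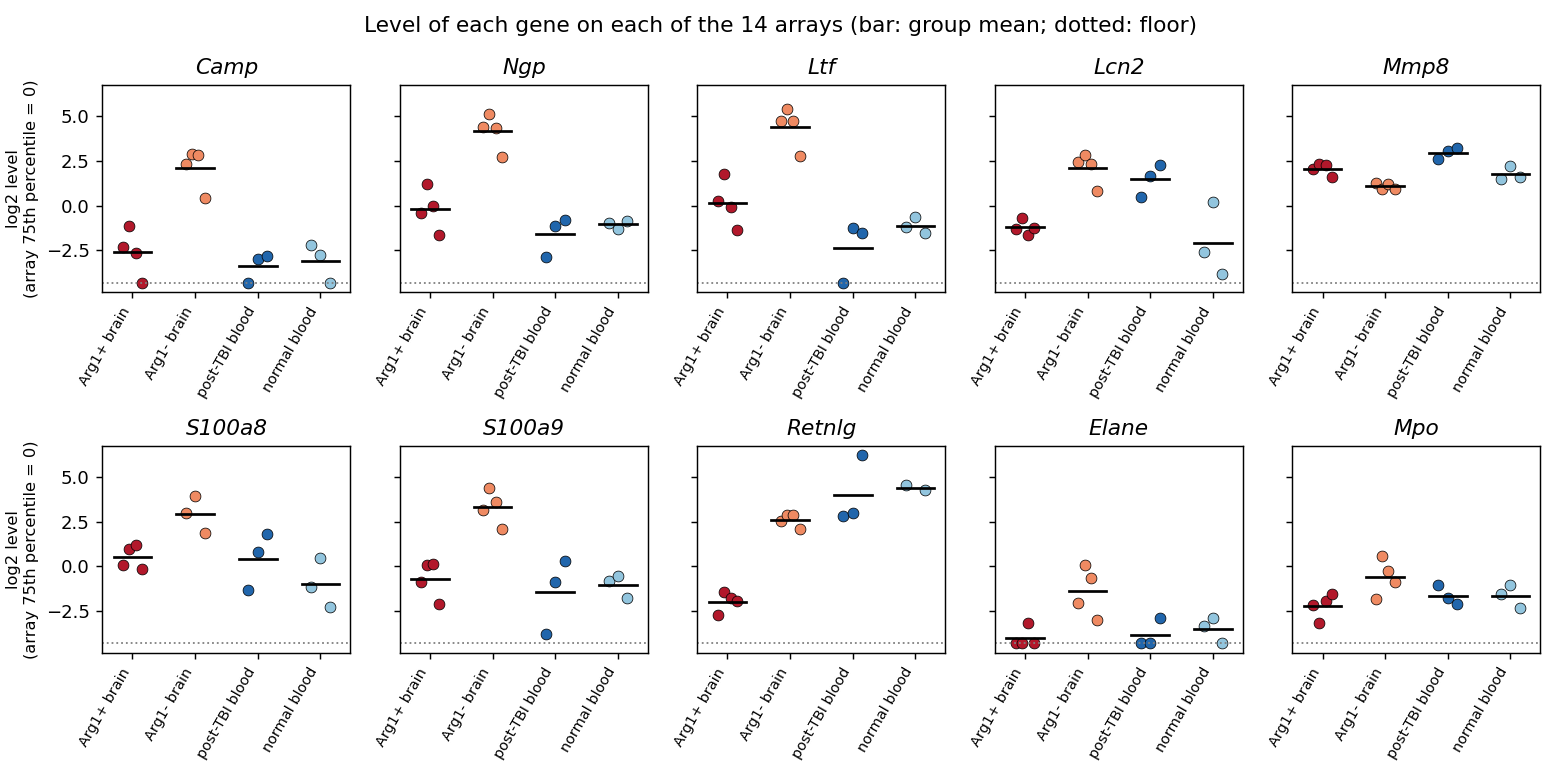
Log2 level of each of the 10 genes (y axis, 0 is the array's 75th percentile) on every usable array, by group (x axis), with 1 point per array, a bar at the group mean and a dotted line at the floor of -4.32. Camp, Ngp, Ltf and S100a9 share a peak in Arg1- macrophages, Mmp8 has its lowest values there, and Retnlg is high in blood.

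Ranked by group mean, 8 of the 10 genes had their highest level in Arg1- macrophages, Mmp8 in post-TBI blood and Retnlg in normal blood. For Camp, Ltf, Ngp, S100a8 and S100a9 the step from Arg1- macrophages to the next group was free of overlap, and every later step in the order overlapped. Lcn2 had its one clear step between post-TBI blood and Arg1+ macrophages. Retnlg had its one clear step between Arg1- and Arg1+ macrophages. Mmp8 ran from post-TBI blood over Arg1+ macrophages and normal blood to Arg1- macrophages, with an overlap between the middle groups alone.

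The arrays lay on 4 slides, and each slide held 1 array of each brain population. On each slide with both spots usable, 9 genes were lower and Mmp8 was higher in the Arg1+ array. The within-slide difference of Camp was -2.76, -4.94, -7.22 and -4.00 on slides 1 to 4. Those of Ngp were -3.14, -4.46, -6.79 and -3.14. The differences of Retnlg lay closer together, at -4.82, -4.32, -4.80 and -4.35. For Camp, Ngp, Ltf and S100a9 slide 3 gave the widest difference, as it paired the lowest Arg1+ array with the highest Arg1- array for each of these genes. Mmp8 differed by 1.15, 1.04, 0.64 and 1.11. With slide as a block, all 8 calls remained and Mpo joined them.

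**Figure D2:**
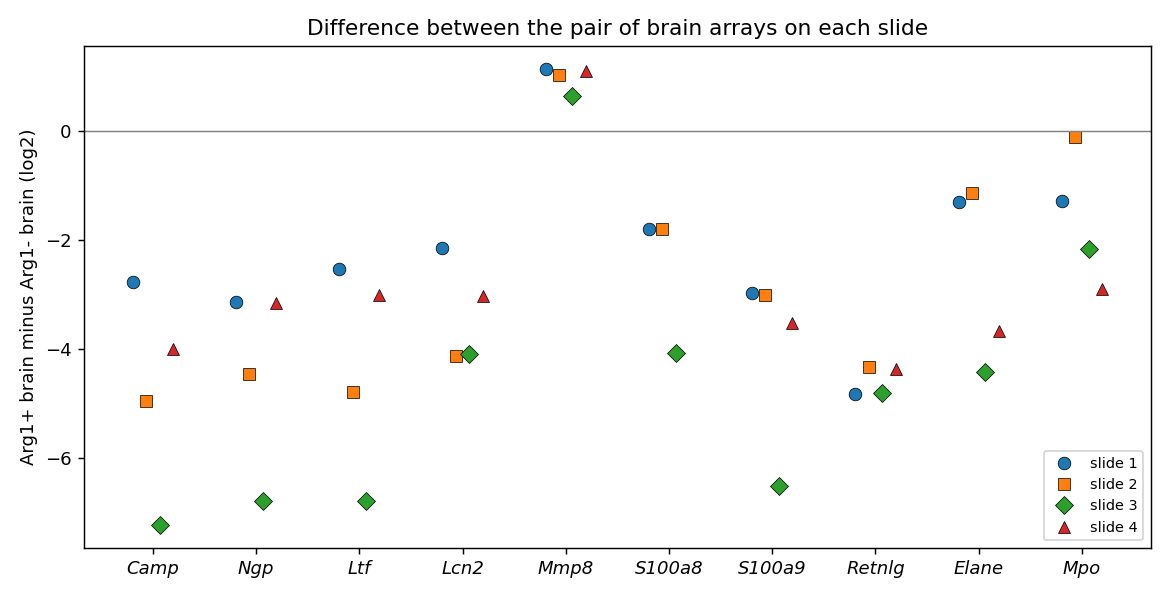
Difference between the Arg1+ and the Arg1- array of each slide (y axis, log2) for the 10 genes (x axis), with 1 symbol per slide. All differences lie below 0 except those of Mmp8, and Retnlg has a narrow range between -4.82 and -4.32.

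Against post-TBI blood, Camp, Ngp, Elane, S100a8 and S100a9 were higher in Arg1- macrophages, Lcn2 and Retnlg were lower in Arg1+ macrophages, and in both populations Ltf was higher and Mmp8 lower. Both comparisons share the 3 post-TBI blood arrays, so the values are given side by side. In Arg1- macrophages 6 genes were higher and 1 lower than in post-TBI blood, where 33.4% of all features were called, 17% as higher and 16.4% as lower. In Arg1+ macrophages 1 gene was higher and 3 were lower, where 39.9% of all features were called, 19.9% as higher and 20% as lower, so the members' share of calls in Arg1+ macrophages was that of all features. The median difference over the 10 genes was 2.46 for Arg1- macrophages, against -0.02 over all features, and -0.05 for Arg1+ macrophages, against -0.03. Arrays of Arg1- macrophages and post-TBI blood did not overlap for 6 genes, against 37% of all features: 5 lay higher (18.9% of all features) and 1 lower (18%). Arrays of Arg1+ macrophages and post-TBI blood did not overlap for 3 genes, against 39.7% of all features: 0 lay higher (19.2%) and 3 lower (20.4%).

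Among specific granule genes, Camp was higher in Arg1- macrophages than in post-TBI blood by 5.50 ± 0.73 on the log2 scale (SE, n = 4 and 3, limma adjusted p = 4e-05). Its difference of Arg1+ macrophages from post-TBI blood was 0.77 ± 0.73 (adjusted p = 0.452). Ltf was higher in Arg1- macrophages by 6.78 ± 0.78 (adjusted p = 9.55e-06), and in Arg1+ macrophages by 2.51 ± 0.78 (adjusted p = 0.0176). The call for Arg1+ macrophages rests on single arrays: it was lost without Arg1+ replicate 2 (adjusted p = 0.0528) and without post-TBI blood replicate 1, whose level was at the floor (1.53, adjusted p = 0.112). Without that blood array the Ltf difference of Arg1- macrophages was 5.80 and that of Ngp 5.14, both still called. Ngp was higher in Arg1- macrophages by 5.78 ± 0.64 (adjusted p = 6.8e-06), and its difference in Arg1+ macrophages was 1.40 ± 0.64 (adjusted p = 0.0973; 0.0285 without Arg1+ replicate 4).

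Lcn2 and Mmp8 behaved otherwise. Lcn2 was lower in Arg1+ macrophages than in post-TBI blood with a difference of -2.70 ± 0.72 on the log2 scale (SE, n = 4 and 3, limma adjusted p = 0.00765), while the difference of Arg1- macrophages was 0.63 (adjusted p = 0.568, 95% interval -0.91 to 2.18). Mmp8 was lower than in post-TBI blood in both, with a difference of -0.89 ± 0.22 in Arg1+ macrophages (adjusted p = 0.00431) and -1.88 ± 0.22 in Arg1- macrophages (adjusted p = 1.15e-05).

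Of the remaining genes, S100a9 was higher in Arg1- macrophages than in post-TBI blood by 4.75 ± 0.79 on the log2 scale (SE, n = 4 and 3, limma adjusted p = 0.000302), and by 3.59 without post-TBI blood replicate 1 and 5.63 without replicate 4. S100a8 was higher by 2.50 ± 0.79 (n = 3 and 3, limma adjusted p = 0.0251), a call lost without post-TBI blood replicate 1 (0.111), Arg1- replicate 1 (0.0625) or Arg1- replicate 2 (0.0977). Its difference was 1.61 without post-TBI blood replicate 1 and 3.18 without replicate 4. Elane was higher by 2.43 ± 0.62 (adjusted p = 0.00733), with 1 of 3 post-TBI blood arrays well above background and overlapping arrays. None of these 3 genes was called between Arg1+ macrophages and post-TBI blood, where their differences lay between -0.20 and 0.75. Retnlg was lower in Arg1+ macrophages than in post-TBI blood with a difference of -5.98 ± 0.62 (adjusted p = 3.72e-06), and of -4.87 without post-TBI blood replicate 4 and -6.58 without replicate 1. Its difference in Arg1- macrophages, -1.41 ± 0.62, was not called (adjusted p = 0.1), but it was with slide as a block (0.0398), without post-TBI blood replicate 1 (0.028) and without replicate 3 (0.0496). Mpo was called in neither (adjusted p = 0.455 for Arg1+ and 0.129 for Arg1- macrophages), except in Arg1- macrophages with slide as a block (0.0271) and without Arg1- replicate 1 (0.0316).

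**Figure D3:**
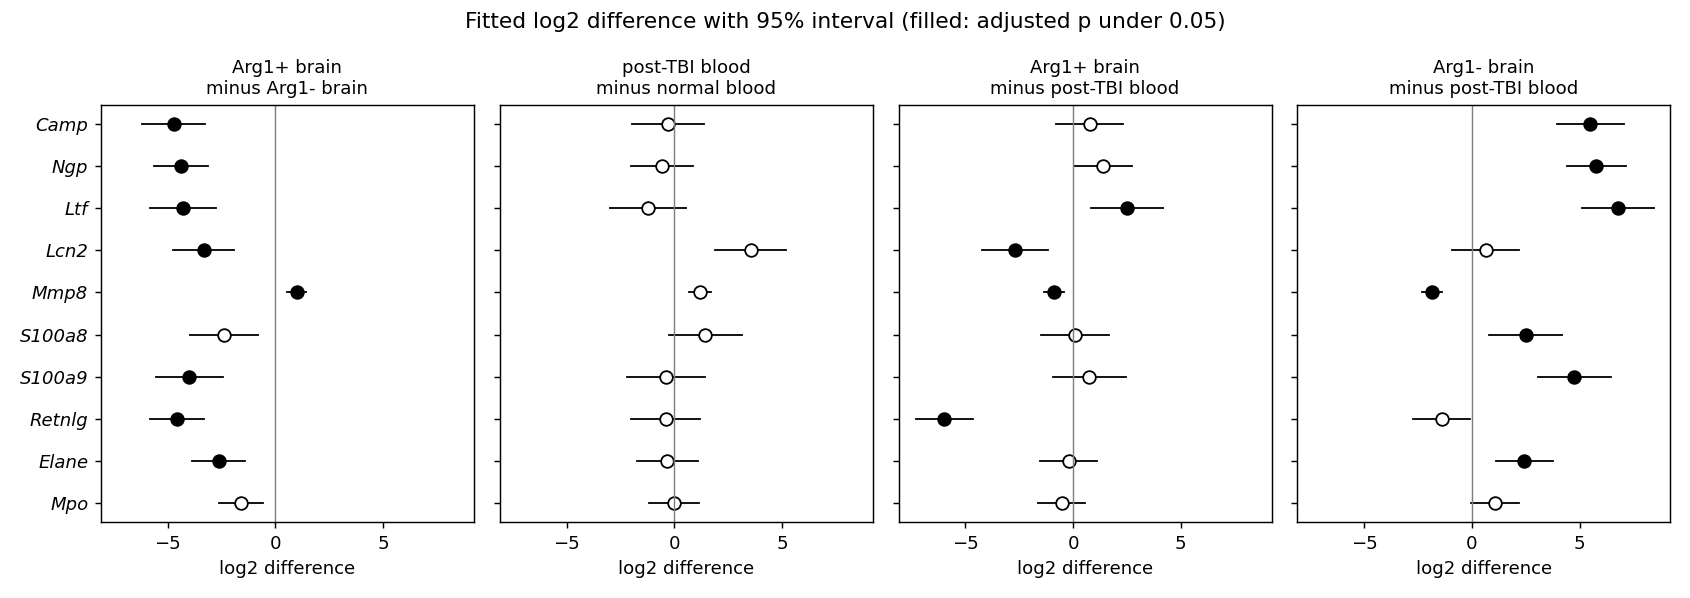
Fitted log2 difference with its 95% interval (x axis) for each gene (y axis) in the 4 comparisons, the group named first minus the group named after it. Filled points have an adjusted p under 0.05: 8 genes between the brain populations, 0 between blood groups, 4 for Arg1+ macrophages and 7 for Arg1- macrophages against post-TBI blood.

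Between monocytes of post-TBI and normal blood, 0 of the 10 genes passed the test, where 0.15% of all features did (limma), 0.109% as higher and 0.041% as lower. At an unadjusted p under 0.05 there were 2, Lcn2 and Mmp8, and they were also the 2 genes whose arrays did not overlap, against 9.26% of all features. Both lay higher in post-TBI blood, as did 4.49% of all features, while 4.77% lay lower. The median difference over the 10 genes was -0.30, against 0.00 over all features. Lcn2 differed by 3.56 ± 0.77 (SE, n = 3 and 3, limma adjusted p = 0.123), and by 4.24, 6.10 and 0.32 within the 3 slides. The small within-slide value came from the slide that paired post-TBI replicate 1, the lowest post-TBI array at 0.49, with normal replicate 3. The level of normal replicate 3, 0.17, stood apart from the other 2 normal arrays. Without normal replicate 3 Lcn2 was called (limma adjusted p = 0.00266). Mmp8 differed by 1.19 ± 0.23 (SE, n = 3 and 3, limma adjusted p = 0.0695) and by 1.54, 1.59 and 0.43 within slides. Mmp8 was called without normal replicate 3 (adjusted p = 0.0261) or without post-TBI replicate 1 (adjusted p = 0.0418).

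The other 8 genes had wide intervals in blood. S100a8 differed by 1.43 (95% interval -0.26 to 3.13, limma adjusted p = 0.849) and S100a9 by -0.39 (-2.20 to 1.42). Camp, with a difference of -0.29, had an interval of -1.96 to 1.38, and Ltf, at -1.23, one of -3.00 to 0.54. Within slides 7 genes had differences of both signs, and S100a9 ran from -3.21 on slide 3 to 2.09 on slide 2. A p that misses the threshold in 3 against 3 arrays does not show equal levels.

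The levels of Camp, Ltf and Ngp, specific granule genes, and of S100a9, a cytosolic one, varied together. Across the 14 arrays, Pearson's r between Camp, Ltf, Ngp and S100a9 was 0.95 to 0.98 over their 6 pairs, and 0.78 to 0.93 after each group's mean was removed. These are descriptions over arrays that share the group difference, the slides and the array scaling. The 4 genes were grouped with results of these data known, so their high range carries no test. S100a8 and Retnlg, each with a spot set aside, were left out of all correlations here. The other specific granule genes followed less closely, and Mmp8 ran the opposite way across all arrays but with them within groups. Lcn2 correlated with these 4 genes at 0.52 to 0.64 across all arrays and at 0.40 to 0.62 within groups. Mmp8 correlated with them at -0.68 to -0.58 across all arrays but at 0.59 to 0.70 within groups. Mpo correlated with them at 0.43 to 0.54 across all arrays and at -0.31 to -0.10 within groups. Elane, the other azurophil granule gene, correlated with them at 0.78 to 0.88 across all arrays and at 0.49 to 0.69 within groups. Arg1- replicate 4 was the lowest Arg1- array for Camp, Ltf, Ngp, Lcn2, S100a8, S100a9, Elane, Retnlg and Mmp8, and Arg1- replicate 2 the highest for Camp, Ltf, Ngp, Lcn2, Mpo, Elane, S100a8 and S100a9.

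Among 12464 genes with a symbol and no missing array, those outside the set with a level profile most like Camp were Cdh1 (r = 0.917), Ccl17 (0.915) and Ccnd2 (0.914), over 14 arrays. For Ltf they were Ccl17, Cdh1 and Slc30a4, and for Ngp Ccl17, Ccnd2 and Cdh1. Lcn2 was nearest to Nrg1 (r = 0.926) and Wfdc21 (0.925), and Mmp8 to Slc25a37 (0.906). Elane was nearest to Kif20b (0.914), to Prss57 (0.911), a serine protease of azurophil granules, and to Ms4a3 (0.910), a gene of granulocyte and monocyte progenitors. For S100a9 they were Top2a, Prss57 and Ccnd2. These lists rank whole profiles over arrays that share groups and slides, and they carry no test.

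Other neutrophil genes, taken from lists of granule, receptor and regulatory genes, followed in part. The counts stand beside 2.9% of all features called as lower and 2.14% as higher in Arg1+ than in Arg1- macrophages. Of 7 measured genes of the azurophil granule or its precursor cells, 2 were lower in Arg1+ than in Arg1- macrophages and 0 higher. They were Ms4a3, a gene of granulocyte and monocyte progenitors (-1.86 ± 0.40, limma adjusted p = 0.0127), and the serine protease Prss57 (at least 3.09-fold lower, limma adjusted p = 0.00148). Prss57 was above background on all 4 Arg1- arrays and on no other array. It passed the filter on dim probes only through the group where it was high, so its call is not separate support. Of 11 genes of specific and gelatinase granules, 4 were lower and 0 higher. These were Mmp25, a membrane-bound metalloproteinase (-3.29 ± 0.71, adjusted p = 0.013), the peptidoglycan-binding protein Pglyrp1 (-3.09 ± 0.43, adjusted p = 0.000584), the neutrophil surface protein Cd177 (-2.12 ± 0.23, adjusted p = 8.28e-05) and the oxidase subunit Cybb (-0.97 ± 0.17, adjusted p = 0.00303). Mmp9, the gelatinase of these granules, differed by 0.14 (adjusted p = 0.878).

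Of 7 measured neutrophil receptors, 3 were lower and 1 higher in Arg1+ macrophages. The decoy interleukin-1 receptor Il1r2 (-2.96 ± 0.40, limma adjusted p = 0.000507), the chemokine receptor Cxcr2 (-1.45 ± 0.33, adjusted p = 0.0186) and Trem1 (-1.10 ± 0.28, adjusted p = 0.0351) were lower. The formyl peptide receptor Fpr1 was higher (1.07 ± 0.27, adjusted p = 0.0304). Csf3r, the receptor of granulocyte colony-stimulating factor, differed by -0.39 (adjusted p = 0.368). Of 9 other cytosolic and secreted neutrophil genes 1 was lower, the histidine decarboxylase Hdc (-2.42 ± 0.51, adjusted p = 0.0116).

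None of 7 measured transcription factors of granule genes was called between the brain populations. The nearest to the threshold was Gfi1, at the floor on every Arg1+ array and above background on 3 of 4 Arg1- arrays (limma adjusted p = 0.0807), followed by Cebpd, which differed by -0.35 ± 0.19 (adjusted p = 0.384). No blood array was above background for Gfi1 either. Gfi1, like Prss57, thus passed the filter on dim probes only through Arg1- arrays. Among 7 inhibitors of the enzymes, Serpinb1a, which inhibits elastase and related proteases, was lower (-1.57 ± 0.36, limma adjusted p = 0.0184). None of 5 receptors and partners of the proteins was called, with P2rx7 (0.38, adjusted p = 0.138) and Tlr4, a receptor for calprotectin (0.79, adjusted p = 0.192), closest to it. Of 7 relatives in the S100 and resistin-like families 1 was lower, Retnla (at least 4.0-fold, limma adjusted p = 0.0174). Between post-TBI and normal blood no gene of these lists was called, where 0.15% of all features were.

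**Figure D4:**
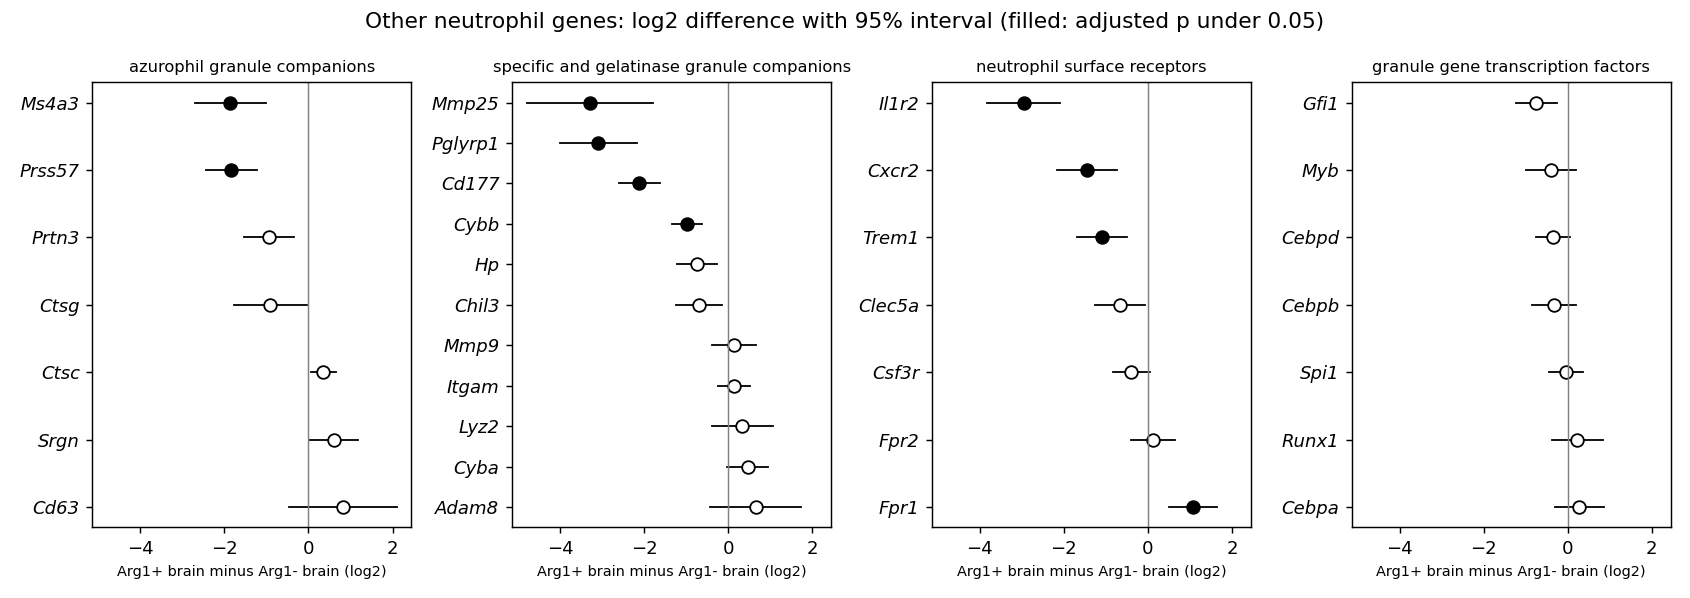
Log2 difference of Arg1+ minus Arg1- macrophages with its 95% interval (x axis) for other neutrophil genes (y axis) in 4 lists. Filled points have an adjusted p under 0.05, and all of them lie below 0 except Fpr1. Prss57 and Gfi1 were at the floor on every Arg1+ array, so their points depend on the floor.

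Against post-TBI blood, the same lists held calls in both directions, and the 3 shared post-TBI arrays enter every value here. Over all features 39.9% were called for Arg1+ macrophages (19.9% higher, 20% lower) and 33.4% for Arg1- macrophages (17% higher, 16.4% lower). The counts below are descriptions to be read beside those shares. Of the 7 azurophil genes 3 were higher and 1 lower in Arg1+ macrophages, and 5 were higher and 0 lower in Arg1- macrophages. The 5 include Prss57, which was tested only through its Arg1- arrays. Cd63, a granule membrane tetraspanin also found in lysosomes of macrophages, was higher by 6.22 ± 0.59 in Arg1+ and by 5.41 ± 0.53 in Arg1- macrophages (SE, limma adjusted p = 4.62e-06 and 9.41e-06). Ms4a3 was higher in Arg1- macrophages by 2.00 ± 0.43 (adjusted p = 0.0022), and its difference in Arg1+ macrophages was 0.14 (adjusted p = 0.843). Of the 11 specific and gelatinase granule genes, 3 were higher and 5 lower in each brain population. Pglyrp1 was lower with a difference of -5.88 ± 0.46 in Arg1+ and -2.80 ± 0.46 in Arg1- macrophages (adjusted p = 1.26e-07 and 0.000281), and Adam8, a membrane protease, was higher by 4.15 ± 0.55 and 3.49 ± 0.55 in these groups (adjusted p = 2.47e-05 and 0.000181).

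Of the 7 receptors 1 was higher and 2 lower in Arg1+ macrophages than in post-TBI blood, and 3 were higher and 2 lower in Arg1- macrophages. Clec5a, a C-type lectin receptor of myeloid cells, was higher by 2.77 ± 0.30 in Arg1+ and by 3.43 ± 0.30 in Arg1- macrophages (SE, limma adjusted p = 3.77e-06 and 7.14e-07). Of the 7 transcription factors 1 was higher and 2 lower in Arg1+ macrophages, and 2 were higher and 2 lower in Arg1- macrophages. Those higher in Arg1- macrophages include Gfi1, which was tested only through its Arg1- arrays. Cebpa was higher by 1.66 ± 0.29 in Arg1+ and 1.38 ± 0.27 in Arg1- macrophages (adjusted p = 0.000368 and 0.00126), and Cebpd was lower with a difference of -1.31 ± 0.20 and -0.97 ± 0.20 (adjusted p = 0.000113 and 0.00194). Among the 7 inhibitors, 3 were higher and 1 lower in Arg1+ macrophages and 2 were higher and 0 lower in Arg1- macrophages. Timp1, an inhibitor of metalloproteinases, was higher by 2.53 ± 0.19 in Arg1+ and 2.29 ± 0.19 in Arg1- macrophages (adjusted p = 5.63e-08 and 3.02e-07).

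Markers of other cell types moved alongside the granule genes, and their part in the result was not tested. Of 7 measured neutrophil markers 4 were lower and 1 higher in Arg1+ macrophages. All marker counts here stand beside 2.9% of all features called as lower and 2.14% as higher. The called neutrophil markers (Cd177, Cxcr2, Il1r2, Trem1 and Fpr1) were already counted above among granule and receptor genes, so this count repeats them. The summed level of the 7 markers, in multiples of the array's 75th percentile, was 11.74 to 15.51 in Arg1+ macrophages and 23.13 to 32.07 in the 3 complete Arg1- arrays, and 14.57 to 26.39 in post-TBI and 12.86 to 14.81 in 2 complete normal blood arrays. Such a sum is led by the brightest probes. Mean log2 levels in Arg1+ and Arg1- macrophages were 0.53 and 3.49 for Il1r2 and 2.18 and 3.28 for Trem1, but 2.23 and 2.09 for Mmp9. The sum thus does not stand for all 7 markers. Cxcr2 was above background on 1 of 4 Arg1+ arrays and on 4 of 4 Arg1- arrays. The markers did not share 1 order over the groups: Cd177 and Csf3r were lower in both brain populations than in post-TBI blood, whereas Il1r2 was higher in Arg1- macrophages than there (3.23 ± 0.44, limma adjusted p = 4.49e-05). Dendritic cell markers were lower in Arg1+ macrophages for 5 of 6 genes, with a summed level of 0.454 to 0.785 in Arg1+ macrophages and 7.48 to 11.1 in Arg1- macrophages. Of 9 monocyte and macrophage markers, 1, Ly6c2, was lower in Arg1+ macrophages (-1.01 ± 0.20, limma adjusted p = 0.00831). Of the other lists, 2 of 6 eosinophil, 1 of 2 basophil and mast cell and 1 of 6 NK cell markers were lower and 1 of 5 platelet markers was higher in Arg1+ macrophages, while 0 of 6 T cell, 0 of 6 B cell, 0 of 7 microglia and 0 of 4 red cell markers were called. The basophil and mast cell call was Hdc, already counted above among neutrophil genes. In blood, red cell genes summed to 65.5 to 124.7 after TBI and 8.25 to 71.4 in normal mice, and platelet genes to 9.97 to 19.0 after TBI and 4.84 to 7.79 in normal mice, ranges that stand beside the blood values above.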

How the data were processed

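RNA of 14 sorted samples was amplified and hybridised in 1 colour (Cy3) to Agilent mouse arrays, per the labels' protocols. The deposited scanner files hold spot intensity values from Feature Extraction 10.7.3.1, per the file headers, among them a background-subtracted processed signal that is not scaled between arrays, and other values such as flags per spot. The authors' own normalized log2 values were also deposited, and on each array they rank probes like the median spot signal. The submitters' processing notes name limma without a version.

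Processed signals were divided by each array's 75th percentile, ratios under 0.05 were raised to 0.05, and log2 was taken. Spots called outliers (200 to 728 per array) were set to missing. Probes were named through RefSeq accessions (assembly GRCm38.p6, used for names and promoter sequence, while the array annotation is on mm9), which named 24844 of 41174 probes. Probes with fewer than 2 usable arrays in a group (464) or well above background on fewer than 3 arrays (13101) were left out, and the brightest probe stood for each gene, leaving 21969 features. limma 3.58.1 in R 4.3.3 (lmFit and eBayes with an intensity trend) fitted all 14 arrays on 4 groups, with 10 residual degrees of freedom and two-sided tests, and gave every adjusted p-value and the standard error after ±. Where no array of a group was well above background, the fold is a bound, computed against the higher of the lowest signal well above background on each array and the probe's own signal. That bound is on group means in the main processing, and covers neither the spread between arrays nor other settings. The code was tested on simulated data. The number of arrays limits the precision.

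The named genes are the 10 members and up to 4 called genes in each direction per companion list. In lists without a call, up to 2 genes nearest to it are named. Others come from the 3 genes with the most similar profile per member. Of those 3, only part is named for Lcn2 and Mmp8, and none for Mpo. S100a8 and Retnlg, each with a spot set aside, were not ranked in this way. One gene of the receptor list is not reported here. Mmp9, Csf3r and further marker genes are named as markers. Members and lists were chosen with earlier results of these data known, and the 4 promoter motifs were chosen after the data had been seen. Alternatives were other background corrections, normalizations, floors, filters, probe rules, slide and replicate blocks, and leaving out each array. The background correction normexp used median spot and background signals with an offset of 50 units.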

Additional observations from a re-analysis of the deposited data

Results flagged for a closer look

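In 1 of 19 combinations of gene and group tested, 1 array stood far from the others. Elane in Arg1+ replicate 3 was at a log2 level of -3.16, while the other 3 Arg1+ arrays were at the floor of -4.32. That array was not well above background, and its gap filled the whole range of the group because the other values had been raised to the same floor. Chance alone marks about 1 in 20 groups in this way.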

How the results depend on the processing

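Of 40 gene and comparison pairs 19 were called, and 16 of these stayed called under all 27 alternatives (13 settings and 14 omissions of 1 array). No pair changed sign among called values. The exceptions are Ltf for Arg1+ macrophages against post-TBI blood, Elane for Arg1+ against Arg1- macrophages and S100a8 for Arg1- macrophages against post-TBI blood, whose calls were lost in 5, 6 and 6 settings. The cause was not tested. Normexp was run with an offset of 50 signal units, which is added to every signal and so makes log2 differences between dim signals smaller. Normexp correction took Elane between Arg1+ and Arg1- macrophages from -2.62 to -0.93, and its call was lost. It also gave smaller differences than the fitted ones by over 1.5 times in fold for Camp (-3.26), Lcn2 (-2.60) and Retnlg (-3.44) between these populations, which stayed called. It did so too against post-TBI blood, for Camp (3.86), Ltf (5.55), Ngp (4.99), Elane (1.19) and S100a9 (3.93) in Arg1- macrophages and for Lcn2 (-2.10), Ltf (1.61) and Retnlg (-4.79) in Arg1+ macrophages, all still called. Leaving out 1 array gave 7 to 9 called genes (8 in the fit of all arrays) for Arg1+ against Arg1- macrophages, 0 to 2 (0) for post-TBI against normal blood, 3 to 5 (4) for Arg1+ and 6 to 8 (7) for Arg1- macrophages against post-TBI blood. In blood 1 gene, Lcn2, was called with normexp correction (adjusted p = 0.0478), which moved the median of all features by up to 0.14.

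Over all features, 1108 were called between Arg1+ and Arg1- macrophages. That count was 507 with normexp, 602 without Arg1- replicate 3, 698 without Arg1+ replicate 3 and 1790 without post-TBI blood replicate 4. Between blood groups it was 33, and 16 with normexp, 20 with the authors' values and 0 in a fit of these groups alone, and 2 to 60 over single-array omissions. Replicate numbers did not pair the arrays: same-numbered brain arrays correlated at -0.46 to 0.40 in their deviations from group means. Arrays on the same slide correlated at 0.04 to 0.59 for the brain populations and at 0.13 to 0.35 for blood. The main fit left slide out, and with slide as a block 1502 features were called between the brain populations. With the replicate block 9, 0, 4 and 7 of the 10 genes were called in the comparisons in the order above, S100a8 being the added one, and 2 features between blood groups.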
